A study of Mus musculus with 4 samples.

Results

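Sox4 and Sox11 are the members of the SoxC transcription factor family examined here, in cells of 4 mouse medulloblastomas. They are 2 of the 15002 genes counted, and were chosen by name. They were read in all 3222 cell barcodes with at least 500 unique molecular identifiers (UMIs, each standing for 1 captured RNA molecule). Each tumour grew in an untreated mouse with the hGFAP-Cre and SmoM2 alleles, together with Prkaa1fl/fl and Prkaa2fl/fl, and was taken at postnatal day 16. SmoM2 is an activated Smoothened allele that turns on Sonic hedgehog (SHH) signalling, and Prkaa1 and Prkaa2 encode the catalytic subunits of AMP-activated protein kinase. The hGFAP promoter drives Cre in neural stem and progenitor cells and so in many brain lineages besides cerebellar granule cells. Every tumour carried the floxed alleles, and tumours with intact Prkaa1 and Prkaa2 were not analysed here, so no value below measures an effect of the deletion. Cells were dissociated with papain and captured by Drop-seq, a droplet method that counts RNA near its 3′ end.

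SoxC proteins bind DNA through a high-mobility-group domain and activate transcription. In the developing nervous system they are known for acting in cells that leave the progenitor pool and begin to make neuronal proteins such as class III β-tubulin. Sox12 is the remaining family member, and Sox4 and Sox11 are known to overlap in function. SHH-driven medulloblastoma arises from granule neuron progenitors, and its cells range from dividing progenitors to cells that resemble differentiating granule neurons.

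In GENCODE M21 (GRCm38), Sox4 is a gene of 1 exon on the minus strand of chromosome 13, from 28948919 to 28953713, with a coding length of 1320 bases. Sox11 is also a gene of 1 exon, on the minus strand of chromosome 12 from 27334264 to 27342574, with a coding length of 1185 bases. The 250 bases before the RefSeq start of each gene (GRCm38.p6) are shown because both genes were higher in early neuronal cells. They lie at chr13:28953700-28953949 and chr12:27342719-27342968, both on the minus strand. Capitals mark CCAAT or its reverse complement ATTGG.
Sox4: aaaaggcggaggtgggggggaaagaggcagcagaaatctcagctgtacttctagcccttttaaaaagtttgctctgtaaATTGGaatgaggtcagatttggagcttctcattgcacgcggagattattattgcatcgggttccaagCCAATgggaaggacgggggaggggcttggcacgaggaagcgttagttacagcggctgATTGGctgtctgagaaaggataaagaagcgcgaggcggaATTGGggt
Sox11: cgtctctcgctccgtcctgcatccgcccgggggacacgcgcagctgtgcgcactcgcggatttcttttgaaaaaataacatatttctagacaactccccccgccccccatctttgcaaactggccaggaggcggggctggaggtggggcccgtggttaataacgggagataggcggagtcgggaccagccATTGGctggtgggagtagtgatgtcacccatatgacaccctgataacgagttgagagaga
The Sox4 window held 4 CCAAT matches on either strand and the Sox11 window held 1. At least 1 match was present in 33.8% of 32851 promoter windows of the same length. Neither window held TATAAA (12.4% of windows) or AACAAT, the core of a Sox binding motif (9.42% of windows), on either strand. These are letter matches and not measured binding.

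The tumours contributed 766, 807, 566 and 1083 barcodes, in order of tumour number, with medians between 749 and 972 UMIs. Libraries 1 and 2 stood apart from libraries 3 and 4. Their median mitochondrial shares of UMIs were 10.2% and 11.6%, against 2.33% and 1.79%. No barcode of at least 500 UMIs was shared between tumours. Over all kept barcodes Sox4 had 261, 258, 210 and 499 UMIs in tumours 1 to 4, and Sox11 had 44, 40, 56 and 126. Scaled to the library's total as CPM, the usual depth-scaled unit, whole-tumour Sox4 was 341, 357, 397 and 398. Whole-tumour Sox11 was 57.4 and 55.3 CPM in tumours 1 and 2, against 106 and 101 CPM in tumours 3 and 4. The Sox11 difference between libraries thus followed the difference in mitochondrial share, and its part in the result was not tested. With 1 gene's UMIs summed over a tumour, fewer expressing cells and less RNA per cell cannot be told apart.

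Cells were placed in 5 states by the UMIs of marker genes in each cell after thinning to 500 UMIs. G2/M cells carried genes such as Cenpf and Ube2c, and S-phase cells carried genes such as Hells and the Mcm helicase genes. Early neuronal cells carried genes such as Cntn2 and Stmn2. Late neuronal cells also held at least 4 UMIs of synaptic and channel genes such as Grin2b and Snap25. Non-dividing cells had few markers of either kind. The states held 821 G2/M, 437 S-phase, 278 non-dividing, 633 early neuronal and 261 late neuronal cells. They are ranges of marker content and not cell types, and 173 of the non-dividing and 112 of the late neuronal cells lay at a threshold. Sox4, Sox11 and the genes of the lists described below were in no marker list. Since marker UMIs of the same cells set the states, p-values describe how the states differ.

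Sox4 rose from the low-marker and dividing states to the neuronal states. In non-dividing cells of tumours 1 to 4 it measured 274, 241, 169 and 405 CPM. In early neuronal cells it measured 476, 453, 674 and 737 CPM. Every early neuronal value lay above every non-dividing value, and the means were 585 ± 142 and 272 ± 98.8 CPM (SD, n = 4). The log2 difference was 1.06 (standard error 0.22), higher in 4 of 4 tumours, with an adjusted p of 0.000111 in edgeR's quasi-likelihood test. Of 3175 tested genes outside the marker lists, 17.6% passed this comparison, 9.76% as higher and 7.84% as lower, so a call by itself was not rare. In tumours 1 and 2 alone the Sox4 difference was 0.76 with an adjusted p of 0.193 (edgeR), and in tumours 3 and 4 alone it was 1.18 with an adjusted p of 9.09e-06. Without the tumour as a block the adjusted p was 0.068 (edgeR).

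Against G2/M cells the Sox4 difference had the same direction. In G2/M cells Sox4 was 267, 254, 429 and 286 CPM, and the mean of the 4 tumours was 309 ± 81.1 CPM (SD, n = 4). All 4 early neuronal values exceeded all 4 G2/M values. The log2 difference was 0.96 (standard error 0.17) with an adjusted p of 1.32e-06 (edgeR). Of the 3175 genes 35.2% passed this comparison, 18.4% as higher and 16.8% as lower. This call held under each of the 17 other settings tried.

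Sox11 was also higher in early neuronal cells, on far fewer UMIs. Non-dividing cells held 54.8, 80.3, 84.6 and 50.6 CPM in tumours 1 to 4, from 3, 3, 5 and 5 UMIs. Early neuronal cells held 115, 113, 133 and 191 CPM, from 14, 13, 13 and 38 UMIs. The 2 sets did not overlap, tumour 4 was the highest of the early neuronal values, and the means were 67.6 ± 17.3 and 138 ± 36.2 CPM (SD, n = 4). The log2 difference was 1.22 (standard error 0.42) with an adjusted p of 0.0302 (edgeR). Without tumour 4 it was 0.78 with an adjusted p of 0.439, and without tumour 3 it was 1.34 with an adjusted p of 0.0746 (edgeR). DESeq2 gave 1.09 with an adjusted p of 0.125. In all, this call was lost under 5 of 12 alternatives.

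G2/M cells held 43.7, 69.9, 134 and 92.8 CPM of Sox11 in tumours 1 to 4, and these values overlapped the early neuronal ones. In tumour 3 the G2/M and early neuronal levels were 134 and 133 CPM. The log2 difference between early neuronal and G2/M cells was 0.79 (standard error 0.29), higher in 3 of 4 tumours, with an adjusted p of 0.0233 (edgeR). It missed the threshold without tumour 1 (0.63, adjusted p 0.118) and without tumour 4 (0.59, adjusted p 0.303, edgeR). In all it missed the threshold under 7 of 12 alternatives, among them the DESeq2 test (adjusted p 0.157) and edgeR without the tumour as a block (adjusted p 0.462).

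**Figure D1:**
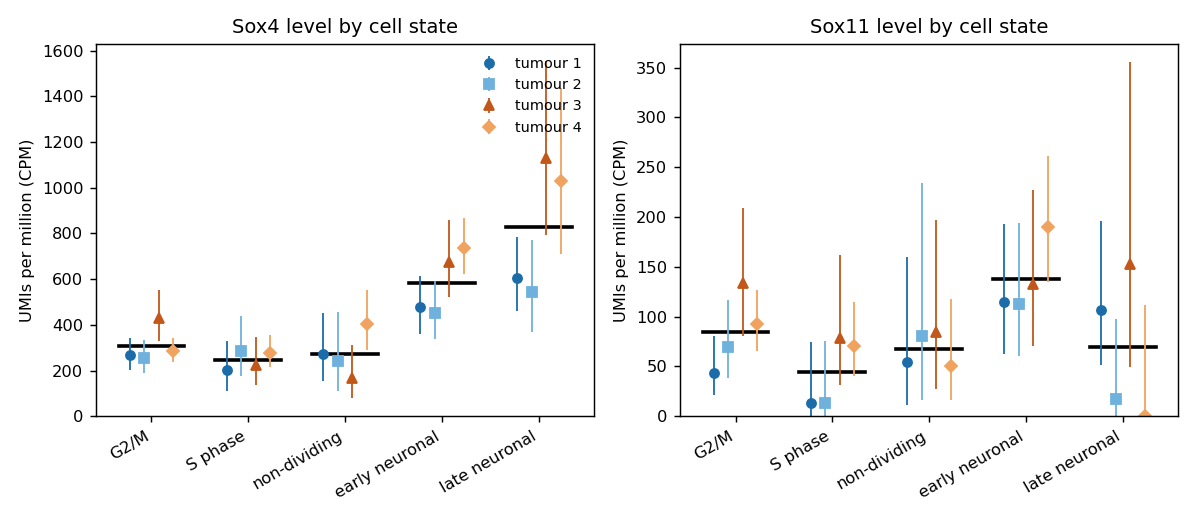
Sox4 (left) and Sox11 (right) in CPM for each of 5 cell states. Points are tumours with exact 95% Poisson intervals that cover counting error only, and black bars are means of 4 tumours. The 4 early neuronal Sox4 points, from 453 to 737 CPM, lie above all non-dividing points, and late neuronal Sox11 runs from 0 to 153 CPM.

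Past the early neuronal state the values of the 2 genes lay in different directions, but neither difference passed the test. Late neuronal cells held 607, 543, 1129 and 1029 CPM of Sox4, a mean of 827 ± 295 CPM (SD, n = 4). Each tumour's late value exceeded its own early value, although the ranges overlapped. The log2 difference was 0.39 (standard error 0.19) with an adjusted p of 0.606 (edgeR). Only 0.063% of the 3175 genes passed this comparison, and 237 of them had an unadjusted p under 0.05.

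Late neuronal Sox11 was 106, 17.5 and 153 CPM in tumours 1 to 3, from 10, 1 and 5 UMIs. Tumour 4 had 0 of 33056 UMIs, which allows up to 90.8 CPM. The mean was 69.1 ± 72.6 CPM (SD, n = 4), lower than in early neuronal cells in 3 of 4 tumours. The log2 difference was -0.86 (standard error 0.43) with an adjusted p of 0.631 (edgeR). Leaving out 1 tumour moved it between -1.55 and -0.36, and it passed the test in none of the 4 fits.

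S-phase cells had the lowest mean of both genes, without passing a test. S-phase cells held 201, 286, 225 and 278 CPM of Sox4, a mean of 247 ± 41.2 CPM (SD, n = 4). Their log2 difference from G2/M cells was -0.34 (standard error 0.21) with an adjusted p of 0.487 (edgeR), where 4.28% of genes passed, 1.32% as higher and 2.96% as lower. Without tumour 3 the Sox4 difference was -0.14. Sox11 in S-phase cells was 13.4 and 13.6 CPM in tumours 1 and 2, from 1 UMI each, and 78.8 and 70.7 CPM in tumours 3 and 4. It was lower than in G2/M cells in 4 of 4 tumours, with a log2 difference of -0.76 (standard error 0.38) and an adjusted p of 0.340 (edgeR). Without tumour 4 the Sox11 difference was -1.15. Between non-dividing and S-phase cells, where 3.53% of genes passed, 1.1% as higher and 2.43% as lower, the log2 difference was 0.24 for Sox4 and 0.33 for Sox11, with adjusted p-values of 0.755 and 0.847 (edgeR).

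By mean level, Sox4 ordered from S-phase through non-dividing, G2/M and early neuronal to late neuronal cells. Of the neighbours in this order that were tested, only G2/M and early neuronal cells differed. Non-dividing and G2/M cells were not compared by a test, and their values overlapped. Sox11 ordered from S-phase through non-dividing, late neuronal and G2/M to early neuronal cells. Each pair of neighbours in the Sox11 order had overlapping values, and the last pair passed the test as given above.

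A finer division by marker content used quiet cells, those under the G2/M and S-phase thresholds. They were binned by their summed early and late neuronal marker UMIs per 500. Mean Sox4 was 267 ± 84.9 CPM at 0 to 3 marker UMIs and 358 ± 135 CPM at 4 to 7 (SD, n = 4). It was 492 ± 58.1 CPM at 8 to 11, 648 ± 168 CPM at 12 to 15 and 901 ± 324 CPM at 16 or more (SD, n = 4). Mean Sox11 went from 46.8 ± 24.1 CPM in the lowest bin to 157 ± 31.0 CPM in the highest (SD, n = 4). The highest bin exceeded the lowest in 4 of 4 tumours for both genes. Tumour 3 had the lowest Sox4 of all tumours in the lowest bin, 145 CPM, and the highest in the top bin.

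**Figure D2:**
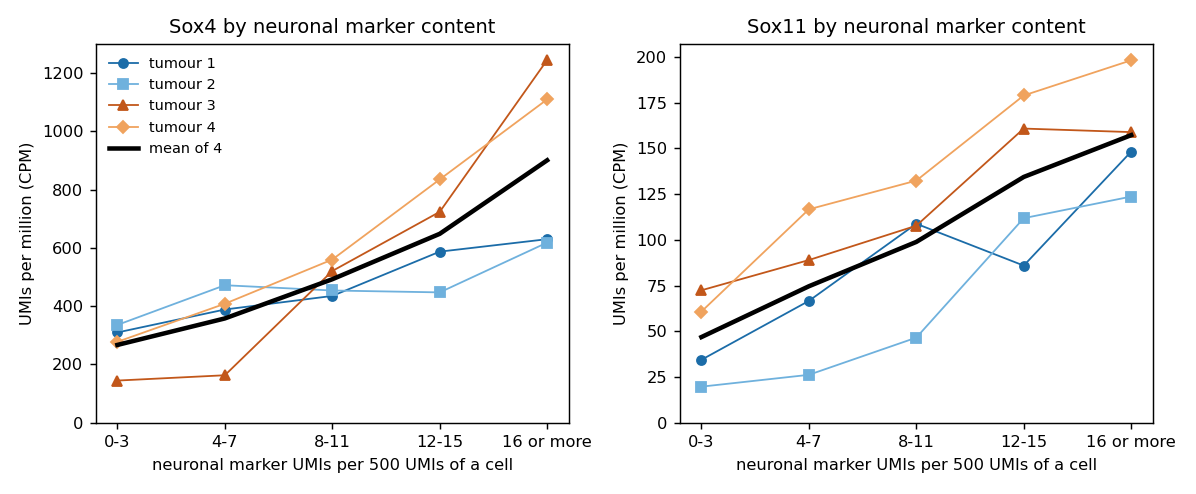
Sox4 (left) and Sox11 (right) in CPM, in quiet cells binned by neuronal marker UMIs per 500 UMIs of a cell. Coloured lines are tumours and the black line is their mean. Mean Sox4 goes from 267 to 901 CPM and mean Sox11 from 46.8 to 157 CPM across the bins, and the lines of the tumours cross for both genes.

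Cell depth and nuclear RNA moved with these states. Malat1, a nuclear-retained RNA, averaged 12.2, 12.2, 8.31 and 7.52 UMIs per 500 in non-dividing cells of tumours 1 to 4. In early neuronal cells it averaged 18.3, 15.6, 13.1 and 11.9, higher in every tumour. Median UMIs per cell ranged from 787 to 1278 in G2/M cells and from 703 to 791 in early neuronal cells. The part of either in the Sox4 and Sox11 differences was not tested. With each cell thinned to 500 UMIs, the early neuronal log2 difference of Sox4 was 1.06 from non-dividing cells and 0.86 from G2/M cells. The sums are scaled to their totals in any case, so thinning mainly changes the weight of each cell. It does not test the part of depth or of nuclear RNA.

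The share of cells with a Sox4 UMI followed the level. At 500 UMIs per cell, a Sox4 UMI was found in 13.4% ± 2.39 of G2/M, 9.0% ± 4.37 of S-phase and 10.2% ± 3.30 of non-dividing cells (SD, n = 4). It was found in 22.6% ± 4.35 of early neuronal and 27.1% ± 10.7 of late neuronal cells (SD, n = 4). Without thinning, these shares were 24.9%, 18.3%, 18.5%, 34.6% and 34.6% in the same order. Sox11 UMIs were found in 3.01% ± 2.18, 2.37% ± 2.42, 2.27% ± 1.49, 6.54% ± 1.26 and 3.65% ± 4.65 of cells in that order after thinning (SD, n = 4). Without tumour 3 the Sox11 share was 1.29% in S-phase and 1.39% in late neuronal cells. Most positive cells held a single UMI. Of the 222 early neuronal cells with Sox4 before thinning, 162 held 1 UMI, and the largest count in any cell was 10.

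Vessel, meningeal and immune cells gave a level to set these shares against. The 42 such cells, with a median of 1185 UMIs, held 16 Sox4 UMIs, or 257 CPM (exact 95% interval 147 to 417). After thinning, 9.52% of them had a Sox4 UMI (exact 95% interval 2.66 to 22.6%). The mean Sox4 levels and shares over 4 tumours in S-phase, non-dividing and G2/M cells lay within the intervals of the 42 cells. Of single tumours, the G2/M level of tumour 3, 429 CPM, lay above the interval, and the S-phase share of tumour 1, 2.60%, lay under it. Mean shares in these 3 states are therefore not read as expression. The early neuronal mean of 585 CPM and the late neuronal mean of 827 CPM lay above the interval of the level. The early neuronal mean share of 22.6% lay within the interval of the share, just under its upper bound. It is therefore not read as expression either. Its values in tumours 1 and 2 lay within the interval, and those in tumours 3 and 4 lay above it. The late neuronal mean share of 27.1% lay above the interval, with tumour 2 within it. In the same 42 cells Neurod1, a granule lineage factor, measured 145 CPM, against 1433 CPM over the 5 states, where Sox4 measured 394 CPM. Whether the Sox4 UMIs of the 42 cells are free RNA or their own was not tested. Sox11 had 0 of 62266 UMIs in these cells, which allows up to 48.2 CPM, and 0 of 42 cells allows a share of up to 7.14%. The mean Sox11 levels in non-dividing, late neuronal, G2/M and early neuronal cells lay above that limit of the level, and the S-phase mean of 44.1 CPM lay under it, with tumours 3 and 4 above. Of single tumours in the former states, G2/M cells of tumour 1 (43.7 CPM) and late neuronal cells of tumours 2 and 4 (17.5 and 0 CPM) lay under it. The mean Sox11 shares of all 5 states lay under the limit of the share, with early neuronal cells of tumour 4 (8.37%) and late neuronal cells of tumour 3 (10.4%) above it. The exact 95% upper bounds, the kind used for Sox4, are higher, at 59.2 CPM and 8.41%. The early neuronal share of tumour 4 and the non-dividing levels of tumours 1 and 4 (54.8 and 50.6 CPM) lay under those bounds.

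Detection of both genes in a cell was close to what the separate shares give after thinning and somewhat above it before. At 500 UMIs, 15 of 2430 cells held both, against 17.9 for independent detection within each tumour and state. The ratio was 0.84, with an exact 95% Poisson interval of 0.47 to 1.38. By tumour it was 0.79, 0, 1.04 and 0.95 in tumours 1 to 4. Before thinning, 67 cells held both against 54.7, a ratio of 1.22 (0.95 to 1.55), and each tumour's ratio lay between 1.11 and 1.27. In cells at or under the median depth of their tumour and state 13 held both, a ratio of 1.01, and in deeper cells 54 held both, a ratio of 1.15. The part of depth in the ratio before thinning was not tested further. Among 633 early neuronal cells, 7 held both after thinning, against 10.04 for independent detection.

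The balance of the pair was read as the Sox11 share of their summed UMIs, which does not depend on depth. Counts of the 2 genes are not compared as levels, since 3′ capture can differ between genes. The share was 19.4%, 20%, 16.5% and 20.5% in early neuronal cells of tumours 1 to 4, a mean of 19.1% ± 1.83 (SD, n = 4). In late neuronal cells it was 14.9%, 3.13%, 11.9% and 0%, a mean of 7.49% ± 7.07 (SD, n = 4). The late value was under the early value in every tumour, and the ranges did not overlap. The log2 ratio of Sox11 to Sox4, with 0.5 added to each count, differed by -1.88 ± 1.79 (SD, n = 4). Without tumour 4, where Sox11 was at 0 and the added 0.5 sets the ratio, the mean difference was -1.11. The exact two-sided sign-flip permutation test gave p = 0.125, the smallest that 4 tumours allow, and 0.625 after Benjamini-Hochberg adjustment over 5 comparisons. G2/M, S-phase and non-dividing cells had mean shares of 21.0%, 14.2% and 21.5%.

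**Figure D3:**
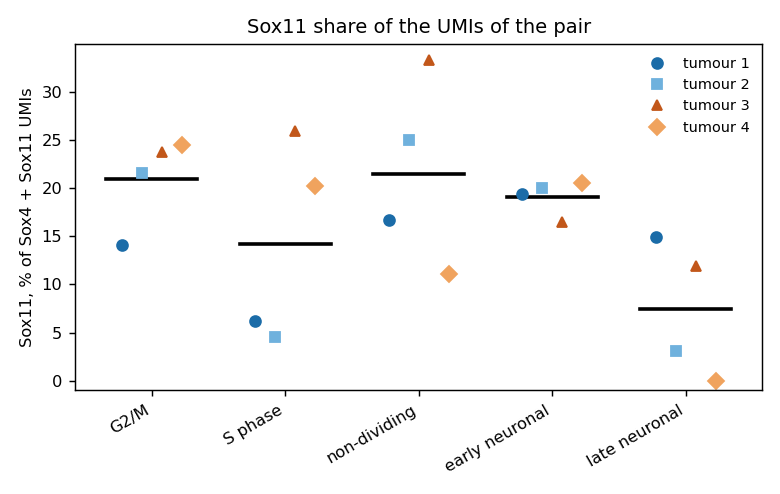
Sox11 as a percent of the summed Sox4 and Sox11 UMIs, by cell state. Points are tumours and black bars are means of 4 tumours. Early neuronal points lie close together between 16.5% and 20.5%, and late neuronal points lie between 0% and 14.9%.

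Sox4 shares its locus with another counted gene. Gm26735, a long intergenic non-coding RNA gene, lies on the plus strand of chromosome 13 from 28943048 to 28951671. Its exon from 28949056 to 28951671 overlaps 2616 bases, or 54.6%, of Sox4 on the opposite strand, starting 137 bases from the 3′ end of Sox4. Whether counting used strand is not given in the sources used here, so reads of Sox4 and Gm26735 cannot be told apart with certainty. Mean Gm26735 was 154 CPM in G2/M, 138 in S-phase, 154 in non-dividing, 300 in early neuronal and 422 in late neuronal cells. Its early neuronal log2 difference from non-dividing cells was 0.98 (standard error 0.29) with an adjusted p of 0.00709 (edgeR), close in size to that of Sox4. Of 375 cells with a Gm26735 UMI, 273 also held Sox4, against 108 for independent detection within tumour and state. Sox11 has no overlapping gene in this annotation.

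Over the 20 sums of tumour and state, after subtracting each tumour's mean, the gene most like Sox4 among 2648 was Gm26735, with Pearson's r of 0.94. Tnik, a kinase gene (0.94), Neurod1 (0.93) and Gng3, a G protein subunit gene (0.93), were also among the most alike. Hmgb1 and Pabpc1 were the most opposed, each with r of -0.92. For Sox11 the most alike were Eif4e3 (0.81), Ndufa4 (0.80), Usp47 (0.80), Suv420h1 (0.75) and Spen (0.75), and the most opposed Ddrgk1 (-0.70) and Mrpl34 (-0.75). Sox4 and Sox11 had r of 0.13 with each other. The sums share libraries and depth, and Sox11 had between 0 and 39 UMIs in each, so the coefficients are descriptions.

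Sox12 passed the test in none of the 5 comparisons with all 4 tumours. It measured 77.9 ± 50.6 CPM in non-dividing and 80.2 ± 57.3 CPM in early neuronal cells (SD, n = 4), higher in 2 of 4 tumours. The log2 difference was -0.06 with an adjusted p of 0.953 (edgeR), and the standard error of 0.44 was wider than that of Sox4. Against G2/M cells the Sox12 difference was 0.73 (standard error 0.37), higher in 3 of 4 tumours, with an adjusted p of 0.123 (edgeR). Without tumour 1 it was 1.02 and passed, with an adjusted p of 0.0361 (edgeR). Between S-phase and G2/M cells the Sox12 difference was 0.98 (standard error 0.37), higher in 3 of 4 tumours, with an adjusted p of 0.113, and without tumour 1 it was 1.23 with an adjusted p of 0.0397 (edgeR). Whether Sox12 differs from Sox4 or Sox11 in these differences was not tested. Of the 16 other Sox family genes listed, Sox5 and Sox9 had enough UMIs to be tested. Sox9, a glial and progenitor factor, fell by 1.74 on the log2 scale between non-dividing and early neuronal cells (adjusted p 4.31e-05, edgeR). Sox5 passed only against G2/M cells, at a log2 difference of 1.17 (adjusted p 0.00115, edgeR).

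Genes reported downstream of SoxC proteins were read beside Sox4 and Sox11 from a list of 6, all tested. Between non-dividing and early neuronal cells 3 rose and 1 fell, with a median log2 difference of 1.03 against -0.01 over the 3175 genes, of which 9.76% rose and 7.84% fell. Tubb3, which encodes class III β-tubulin, differed by 1.74, Map2, a dendritic microtubule protein gene, by 1.58, and Dcx, a gene of migrating neurons, by 1.42. The states were set by neuronal marker content, so a rise of neuronal genes between them is built into the comparison. A link of the listed genes to Sox4 or Sox11 was not tested. Tead2, a Hippo pathway transcription factor gene, fell by 1.10. Nefm, a neurofilament gene, differed by 0.63 with an adjusted p of 0.453 (edgeR). Ezh2, a Polycomb methyltransferase gene, did not pass there and fell by 1.17 against G2/M cells, where 3 of the 6 rose and 2 fell, beside 18.4% and 16.8% of the 3175 genes.

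Of 28 listed granule lineage transcription factors, 24 were tested, and 12 rose and 4 fell between non-dividing and early neuronal cells, where 17.6% of the 3175 genes passed. Their median log2 difference was 0.66. Against G2/M cells 16 rose and 4 fell, where 35.2% of the 3175 genes passed. Neurod1 rose by 3.12 and Neurod2 by 3.47, both factors of granule neuron differentiation, and Myt1 rose by 2.06. Atoh1, which marks granule progenitors, fell by 1.66, and the SHH target Gli1 fell by 2.36. The Sox4 and Sox11 differences of 1.06 and 1.22 lay near those of Pax6 (1.13) and Zic1 (1.11). No gene of the 3 lists passed between early and late neuronal cells, where 0.063% of the 3175 genes passed, so this count says nothing particular of the lists.

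**Figure D4:**
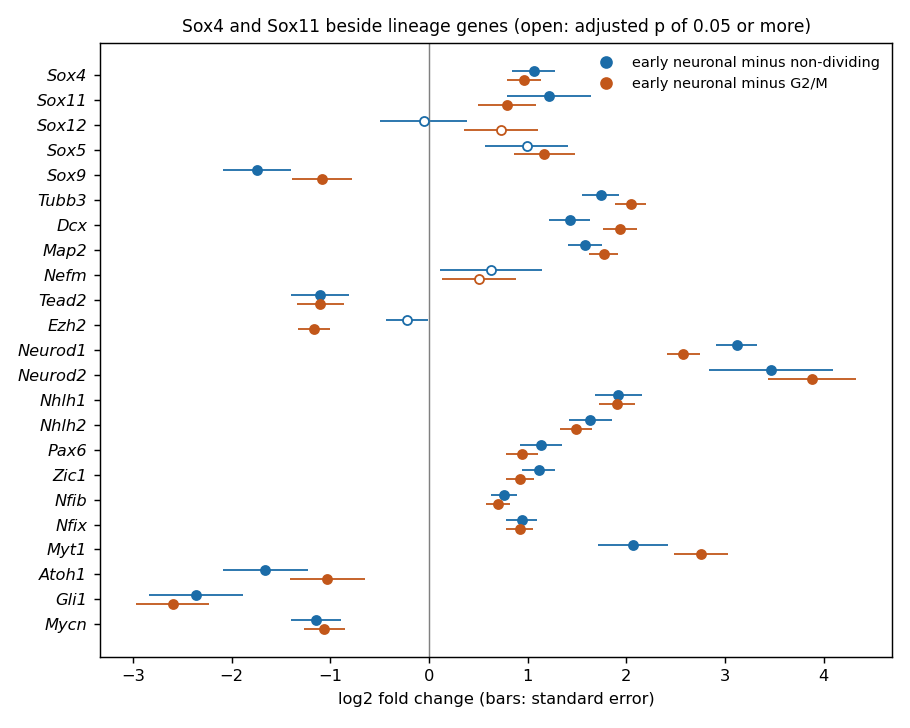
Log2 fold changes (points) with standard errors (bars) for Sox4, Sox11 and listed genes. Blue compares early neuronal with non-dividing cells and orange compares early neuronal with G2/M cells, and open points did not pass an adjusted p of 0.05 in edgeR. Sox4 and Sox11 lie near 1 in the blue comparison, between Neurod1 at 3.12 and Gli1 at -2.36.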

How the data were processed

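The deposited values are whole-number UMI counts per gene and cell barcode, 1 table per tumour, with no normalization, from Drop-seq libraries per the labels' protocols. STAR and mm10 are named in the submitters' processing notes. The counter, annotation and strand setting are not given in the sources used here. A further 6 tables with 11203 cell columns match no labelled sample and were not used.

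Barcodes with at least 500 UMIs were kept. States were set on marker UMIs per cell thinned to 500: at least 6 for G2/M, 4 for S phase and 8 neuronal, of which 4 late for late neuronal cells; non-dividing cells had at most 2 UMIs of each cycle list and 4 neuronal. Cells with at least 5 UMIs from 3 genes of another cell type's list, with both cycle and neuronal markers, between the thresholds, or with 1 gene other than Malat1 and mitochondrial genes over 5% of UMIs were left out. These limits were chosen with the data in view, without reading Sox4 or Sox11. Scrublet marked 2, 1, 4 and 5 cells as doublets, together under 0.5% of cells, so doublets were not effectively removed.

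UMIs were summed per tumour and state and tested with edgeR 4.0.16 in R 4.3.3 (TMM, filterByExpr, quasi-likelihood, Benjamini-Hochberg adjustment over all genes tested). The tumour was a block, since the 5 sums of a tumour come from 1 animal. A standard error is the log2 fold divided by the square root of F. The edgeR step was also run on simulated counts. These had no differences between tumours and no selection of cells by markers, so that run does not bear on either. DESeq2 1.42.0, Leiden clusters (leidenalg 0.10.2) and other settings were alternatives. Intervals are exact at 95%, a count of 0 allows 3 counts, and both cover counting error only. Named genes were the SoxC family, the listed genes and, per member, the 5 most and 2 least alike with a mean of at least 100 CPM. Of these, 1 gene is not reported here. The members and lists were chosen with earlier results of these data known.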

Additional observations from a re-analysis of the deposited data

Results flagged for a closer look

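Of 25 groups of 4 tumours examined, 3 had a tumour apart from the others, each in the share of cells with UMIs of both Sox4 and Sox11 after thinning. The share was 0.697% in G2/M cells of tumour 4 and 1.06% in S-phase cells of tumour 4, from 2 cells each, with 0 in the other tumours. In late neuronal cells of tumour 3 it was 6.25%, from 3 cells, against 0.909% in tumour 1 and 0 in tumours 2 and 4. These rest on 2 or 3 cells, and with 0 in 3 tumours any value above 0 in the other stands apart, so the usual rate by chance of about 1 in 20 groups does not apply. In G2/M cells of tumour 4, independent detection gives 1.85 cells.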

How the results depend on the processing

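Sox4 kept its early neuronal call against G2/M cells under all 17 alternatives. Against non-dividing cells it kept the call under 15 and was 1.07 with no replicate block and 0.76 in tumours 1 and 2 alone, a split chosen after seeing the data. Sox11 was not tested, for low counts, with at least 1000 UMIs per cell, a mitochondrial share of at most 10%, thinning, 1 more marker UMI, or tumours 1 and 2 alone. Its early neuronal log2 difference from non-dividing cells missed the threshold at 1.12 with DESeq2 size factors, 1.09 with the DESeq2 test and 1.07 with no replicate block. Against G2/M cells it missed it at 0.71 with no filter on low counts, 0.69 with the DESeq2 test, 0.73 with no replicate block, 0.63 with Leiden clusters and 0.65 in tumours 3 and 4 alone. Leaving out 1 tumour gave 0.78 to 1.34 for Sox11 against non-dividing and 0.59 to 1.01 against G2/M cells. Between non-dividing and S-phase cells the sign turned for Sox4 (-0.040 to 0.39 leaving out 1 tumour, negative without tumour 4). For Sox11 it turned in tumours 3 and 4 alone (-0.22), and leaving out 1 tumour gave 0.055 to 0.96. Leiden clusters gave no late neuronal state. Their non-dividing class joined clusters of 606 and 424 cells, against 278 non-dividing cells by markers. In both clusters a list of another cell type had a higher mean log2 difference (0.32 and 0.44) than any cycle or neuronal list. This class may thus be mixed. The causes were not tested.

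Genes called between early neuronal and non-dividing cells numbered 603 of 3286 tested. There were 275 of 1397 with at least 1000 UMIs, 362 of 1760 thinned and 1481 of 4866 with Leiden clusters. With no replicate block there were 99 of 3286, and in tumours 1 and 2 alone 165 of 2591. Each setting tested the same number of genes in every comparison. Where fewer genes were tested, a lower count need not be a lower share. Between early neuronal and G2/M cells there were 1226, against 486 with at least 1000 UMIs, 395 with no replicate block, 615 thinned and 629 in tumours 1 and 2 alone. Between S-phase and G2/M cells there were 195, against 81, 53, 91 and 84 in the same order. Between non-dividing and S-phase cells there were 160, against 50, 30, 79 and 65 in that order. There were also 101 with the DESeq2 test, 299 with Leiden clusters and 97 of 2308 tested at a mitochondrial share of at most 10%. Between late and early neuronal cells there were 9, against 0 with at least 1000 UMIs and 0 with no replicate block. Tumours 1 and 2 gave 2, and tumours 3 and 4 gave 21 of 3303 tested. These counts and those leaving out 1 tumour include marker genes, whose UMIs set the states. Outside the marker lists the main counts were 559, 1118, 136, 112 and 2 of 3175 genes, in the order of these comparisons. Leaving out 1 tumour gave 340 to 573, 834 to 1181, 110 to 187, 82 to 143 and 1 to 15 in the order of these comparisons.

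Without thinning, Sox4 was found in 24.9% of G2/M, 18.3% of S-phase, 18.5% of non-dividing and 34.6% of early neuronal cells. Sox11 was found in 8.03% of G2/M, 5.48% of non-dividing and 10.3% of early neuronal cells, and both in 2.52%, 1.83% and 4.29% of these states. Co-detection over expectation, averaged over tumours, was 0.70 thinned and 1.20 without thinning. Sox11 was found in 10.1% of early neuronal cells with at least 1000 UMIs, and both genes in 0.0718% of non-dividing cells by Leiden clusters.

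The Sox11 to Sox4 log2 ratio difference of late from early neuronal cells stayed negative under all 10 alternatives, -2.36 to -1.11 leaving out 1 tumour. That of early neuronal from G2/M cells, -0.14, turned to 0.018 with at least 1000 UMIs, 0.065 at the mitochondrial limit and 0.20 in tumours 1 and 2 alone, and was -0.37 to 0.026 leaving out 1 tumour. That of early neuronal from non-dividing cells, -0.20, turned to 0.24 at the mitochondrial limit and 0.041 with Leiden clusters, and was -0.58 to 0.19 leaving out 1 tumour. That of non-dividing from S-phase cells, 0.80, turned to -0.10 with Leiden clusters and -0.21 in tumours 3 and 4 alone.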
